A study of Mus musculus with 12 samples.

Results

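Mitosis genes encode the machinery that takes a cell from the end of interphase through chromosome segregation to the separation of the daughter cells. Their messages accumulate late in the cell cycle and are low in cells that have stopped dividing. Cyclin B with its kinase drives entry. The kinetochore and the spindle checkpoint delay the separation of sister chromatids until every chromosome is attached. The anaphase promoting complex then releases them. In the marrow lineage, dividing precursors give rise to osteoclasts, which form by fusion of macrophage-like cells and no longer divide. The 44 mitosis genes described here were taken by symbol from a fixed list and were found once each among the 51826 gene identifiers of the forelimb count table and the 55401 of the culture tables. All 44 passed the filter on low counts in both sets. They were ordered by role: 7 genes of mitotic entry, 4 of the chromosomal passenger complex, 7 of the spindle checkpoint and anaphase onset, 7 of the centromere and kinetochore, 10 of spindle assembly and the mitotic kinesins, 6 of the central spindle and cytokinesis, and 3 of chromosome structure or general proliferation.

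RNA sequencing was done on 12 mouse libraries in 6 groups of 2. Forelimbs were taken from embryos at E12.5 that were wild type (WT) or had lost Impdh2, the rate-limiting enzyme of guanine nucleotide synthesis, through a Prx-driven Cre active in limb mesenchyme (Prx-cKO). The other tissues of the limb keep the gene in that cross. Marrow cells, WT or with a LysM-driven deletion of the gene in the myeloid lineage (LysM-cKO), were cultured for 3 days in L929 supernatant equal to 20 ng/ml M-CSF, a macrophage growth factor. They were reseeded overnight and treated with 40 ng/ml of RANKL, the cytokine that induces osteoclasts. Culture samples of both genotypes carry the title R40D3 or R0D3, which the labels do not explain. All 8 share 1 treatment label, so the titles serve only as names. The osteoclast markers Acp5 (tartrate-resistant acid phosphatase) and Ctsk (cathepsin K) lay between 12.4 and 63.0 CPM (counts scaled to library size) in the 4 R0D3 libraries and between 2854 and 11631 CPM in the 4 R40D3 libraries. Calcr, the calcitonin receptor, had no count in any R0D3 library. The R0D3 libraries thus lacked the defining osteoclast markers at the level of the R40D3 libraries, although all are labelled as osteoclast samples. The labels do not say whether replicates came from separate animals, litters or cultures, and p-values measure only the spread between these samples.

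Library totals were 28892215 to 69466572 counts in the forelimb and 16009146 to 19221865 in the cultures. The targeted gene, Impdh2, was at 260 and 272 CPM in the WT forelimbs and at 170 and 199 CPM in the Prx-cKO forelimbs. In the cultures it was at 22.3 to 28.2 CPM in the 4 WT libraries and at 7.03 to 8.38 CPM in the 4 LysM-cKO libraries, with no overlap in any comparison. The 10 limb mesenchyme markers were all detected in each forelimb library and the 12 macrophage markers in each culture library. In bulk RNA, fewer cells of a type and less RNA per cell cannot be told apart.

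The promoters of these genes are shown first because the members varied together in the cultures. In dividing cells, many mitosis genes are known to be controlled through a short element near the transcription start called the cell cycle genes homology region (CHR), bound by the MuvB complexes, and through CCAAT boxes further upstream, bound by NF-Y. The CHR reads TTTGAA in most genes. A variant of it reads TTCGAA. RefSeq promoters (build GRCm38.p6, from 250 bases before to 50 after each start) were matched for 35 of the 44 members, with 37 promoters in all. Both strands were searched, and CCAAT matches on the 2 strands were counted separately where they overlapped. In the lines that follow, the sequence upstream of the start is written 5′ to 3′ on the gene's strand, and capitals mark either CHR form and the CCAAT box, read on either strand. At most 30 bases that GENCODE counts to the gene itself are shown, so the last 54 bases before the RefSeq start of Ccnb1, the last 79 of Cenpa and the last 1 of Ube2c are left out. The first 3 are genes of entry and anaphase onset that carry the CHR letters: Cdk1 (chr10:69352913-69353162, minus strand), Cdc20 (chr4:118437344-118437593, minus strand) and Ube2c (chr2:164769679-164769927, plus strand). The other 3 are Espl1 (chr15:102296043-102296292, plus strand) and Cenpa (chr5:30666636-30666806, plus strand), the members whose levels followed the others least in the cultures, and Ccnb1 (chr13:100786541-100786736, minus strand), which has CCAAT but neither CHR form.
Cdk1: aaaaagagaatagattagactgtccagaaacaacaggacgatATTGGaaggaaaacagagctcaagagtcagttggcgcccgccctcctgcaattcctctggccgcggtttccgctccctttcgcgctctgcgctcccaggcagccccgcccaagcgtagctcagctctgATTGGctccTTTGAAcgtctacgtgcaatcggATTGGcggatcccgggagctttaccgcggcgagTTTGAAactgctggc
Cdc20: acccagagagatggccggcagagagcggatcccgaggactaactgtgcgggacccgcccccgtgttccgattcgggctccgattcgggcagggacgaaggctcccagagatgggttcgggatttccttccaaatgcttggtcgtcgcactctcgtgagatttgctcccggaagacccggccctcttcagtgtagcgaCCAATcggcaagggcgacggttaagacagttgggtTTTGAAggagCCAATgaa
Ube2c: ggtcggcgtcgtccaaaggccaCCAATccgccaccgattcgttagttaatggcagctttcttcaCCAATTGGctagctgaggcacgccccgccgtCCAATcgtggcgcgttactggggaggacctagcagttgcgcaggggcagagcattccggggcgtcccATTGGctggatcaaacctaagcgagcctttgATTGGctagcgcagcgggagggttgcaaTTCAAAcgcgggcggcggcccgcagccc
Espl1: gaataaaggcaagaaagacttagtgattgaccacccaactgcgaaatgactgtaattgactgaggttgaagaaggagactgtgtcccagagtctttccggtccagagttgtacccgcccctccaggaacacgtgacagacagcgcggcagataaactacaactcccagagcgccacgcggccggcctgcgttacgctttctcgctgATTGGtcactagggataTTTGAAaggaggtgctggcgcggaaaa
Cenpa: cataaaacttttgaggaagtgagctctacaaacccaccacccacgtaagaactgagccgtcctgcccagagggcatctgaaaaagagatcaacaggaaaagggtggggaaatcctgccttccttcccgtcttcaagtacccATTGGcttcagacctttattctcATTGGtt
Ccnb1: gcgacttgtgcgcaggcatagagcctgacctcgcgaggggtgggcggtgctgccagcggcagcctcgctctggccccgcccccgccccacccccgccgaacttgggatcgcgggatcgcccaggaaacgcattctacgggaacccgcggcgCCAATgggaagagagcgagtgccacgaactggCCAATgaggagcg

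TTTGAA was present in 29 of the 37 promoters (78.4%), beside 17.9% of all 32851 promoters in the table and 11.1% of the 36 promoters of DNA replication and S phase genes. The match began 71 and 15 bases before the start in Cdk1, 18 bases before it in Cdc20, 29 in Ube2c and 27 in Espl1. In Cenpa it lay 16 bases after the start, outside the sequence shown. Either CHR form starting within 50 bases of the start on either side was found in 78.4% of the members' promoters and in 5.31% of all promoters. CCAAT was present in 78.4% of the members' promoters against 37.4% of all and 58.3% of the S phase promoters. It occurred at 2 or more places in 51.4% against 11.7%. CCAAT together with either CHR form was found in 73% of the members' promoters and in 7.52% of all. The shares describe letters in a window and not bound sites. The 29 genes with either CHR form had a median log2 fold change of 1.02 between LysM-cKO and WT in the R0D3 cultures. The 6 genes with neither form in the window, Birc5, Ccnb1, Cenpe, Mad2l1, Nuf2 and Nusap1, had a median of 0.91. The corresponding medians in R40D3 were 0.78 and 0.79. For Mad2l1 the window ended before the start that GENCODE gives the gene, so the sequence around that start was not searched. Espl1 and Cenpa also had TTTGAA in the window. Whether these letters bear on how the members varied in the cultures was not tested.

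Mitosis genes were abundant in the limb bud and low in the marrow cultures. Per kilobase of exon, the members' median level was 24.3 RPKM (CPM per kilobase) in WT forelimbs, 2.41 RPKM in WT R0D3 cultures and 1.88 RPKM in WT R40D3 cultures. The forelimb and culture tables were normalised separately, and these levels are set side by side without a test. In WT forelimbs the highest were Cdc20, the activator of the anaphase promoting complex, at 102 RPKM, and Ube2c, its ubiquitin-conjugating enzyme, at 90.4 RPKM. Ccnb2, a B-type cyclin, followed at 76.6 RPKM and Plk1, a kinase of entry and spindle formation, at 59.8 RPKM. The lowest was Ndc80, a microtubule-binding kinetochore subunit, at 7.13 RPKM. In the WT R0D3 cultures the order was different: Incenp, the scaffold of the chromosomal passenger complex, was highest at 17.3 RPKM and Cenpa, the centromeric histone H3 variant, was next at 9.14 RPKM. Incenp was the highest member in all 4 culture groups, at 13.2 RPKM in WT R40D3. Lengths were those of GENCODE M21, and 12 of the 44 members share exonic bases with another gene. Kif20a shares 29.3% of its exonic length with Cdc23 and Ube2c 22.8% with Tnnc2, both on the opposite strand. Whether strand was used in counting is not given in the sources used here, so reads in those stretches cannot be assigned with certainty.

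In the forelimb, loss of Impdh2 in limb mesenchyme was compared with WT to ask how the limb bud's transcripts change. Of the 7 mitotic entry genes, 6 were slightly higher in Prx-cKO forelimbs, 5 of them without overlap, with a median of 1.25-fold, while genes of the spindle midzone, the kinetochore and the chromosomes showed no common direction. No member passed the test. By the edgeR quasi-likelihood test with Benjamini-Hochberg adjustment, 0 of 44 members and 0% of the 19987 genes tested were called, and the members' lowest adjusted p was 0.465. DESeq2 called 0 members, with a lowest adjusted p of 0.347. At an unadjusted p under 0.05 there were 6 members, all higher, against 5.87% of all genes. In all, 30 members were higher and 14 lower, while 47.2% of all genes were higher, with a median log2 fold change of 0.16 against -0.03 for all genes. The 2 Prx-cKO libraries were both above the 2 WT libraries for 19 members (22.2% of all genes) and both below for 3 (21% of all genes). The share of members in the first of these was above the background and that in the second was below it.

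Among the entry genes, Ccnb1, cyclin B1, was at 178 and 173 CPM in WT libraries and at 238 and 216 CPM in Prx-cKO. Its log2 fold change was 0.37 (SE 0.14, adjusted p = 0.475, edgeR). Both knockout libraries lay above both WT libraries. Plk1 was at 132 and 131 CPM in WT libraries and at 164 and 188 CPM in Prx-cKO, a log2 fold change of 0.42 (SE 0.15, adjusted p = 0.465, edgeR). Ccnb2 stood at 122 and 113 CPM against 160 and 150 CPM, a log2 fold change of 0.40 (SE 0.14). For these cyclins and this kinase the 2 groups did not overlap, and the same held for 5 of the 7 entry genes, whose median was 0.32. Cdk1, the kinase that B-type cyclins activate, overlapped: 197 and 148 CPM in WT libraries and 219 and 196 CPM in Prx-cKO. Cdc25c, a phosphatase that activates Cdk1, was the only entry gene not higher on average, at 45.2 and 38.9 CPM against 43.1 and 40.1 CPM.

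The chromosomal passenger complex, which corrects faulty attachments and later guides cytokinesis, had a median of 0.25. Its kinase Aurkb was at 67.8 and 62.9 CPM in WT libraries and 75.3 and 81.6 CPM in Prx-cKO, and its survivin subunit Birc5 at 145 and 122 CPM against 156 and 166 CPM. Neither pair of groups overlapped, and the log2 fold changes were 0.26 (SE 0.15) and 0.27 (SE 0.16). In the checkpoint and anaphase set the median was 0.19. Cdc20 was at 175 and 207 CPM in WT libraries and at 245 and 299 CPM in Prx-cKO, with a log2 fold change of 0.51 (SE 0.18, adjusted p = 0.465, edgeR). Ube2c was at 250 and 221 CPM against 297 and 300 CPM, a log2 fold change of 0.35 (SE 0.15). The checkpoint kinases Bub1 and Ttk differed less, with log2 fold changes of 0.16 and -0.05. Ttk, also called Mps1, was at 56.2 and 56.7 CPM in WT libraries and at 53.8 and 54.9 CPM in Prx-cKO, so the groups did not overlap although they differed by about 2 CPM.

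The remaining roles were mixed. Spc24, a subunit of the Ndc80 complex, had the highest log2 fold change of the 44, at 0.51 (SE 0.18), from 87.5 and 92.2 CPM to 111 and 146 CPM. Cenpf, a large kinetochore-associated protein, had -0.29 (SE 0.19), and the kinetochore median was 0.05. Prc1, which bundles the antiparallel microtubules of the central spindle, was at 57.5 and 68.3 CPM in WT libraries and at 92.2 and 82.8 CPM in Prx-cKO, a log2 fold change of 0.47 (SE 0.17, adjusted p = 0.465, edgeR). Kif20a, a kinesin of the same structure, was at 165 and 195 CPM against 221 and 238 CPM, whereas Ect2, the exchange factor that places the contractile ring, had a log2 fold change of -0.28 (SE 0.21). The cytokinesis median was 0.00. Of the spindle genes, Kif18b, a microtubule-depolymerising kinesin, was at 58.5 and 59.8 CPM in WT libraries and at 70.5 and 70.4 CPM in Prx-cKO. Nusap1, a spindle-associated protein, went the other way, at 124 and 129 CPM in WT libraries and 104 and 96.0 CPM in Prx-cKO, with a log2 fold change of -0.34 (SE 0.14, adjusted p = 0.489, edgeR). Kif11, the kinesin that pushes spindle poles apart, was also below WT in both knockout libraries, at 187 and 170 CPM against 200 and 199 CPM.

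The most familiar proliferation marker, Mki67, depended on 1 library. It was at 328 and 581 CPM in WT libraries and at 345 and 363 CPM in Prx-cKO, so that WT replicate 2 stood above the other 3 libraries. Its log2 fold change of -0.36 (SE 0.29) was the lowest of the 44 and became 0.12 without WT replicate 2 and -0.75 without WT replicate 1. Top2a, the topoisomerase that untangles sister chromatids, followed the same pattern, at 446 and 628 CPM in WT libraries and 498 and 537 CPM in Prx-cKO, with -0.05 (SE 0.21). The members' median was 0.08 without Prx-cKO replicate 2, 0.09 without WT replicate 1 and 0.21 without WT replicate 2. With library size alone in place of TMM scaling it was 0.068, beside a shift of the all-gene median to -0.129.

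**Figure D1:**
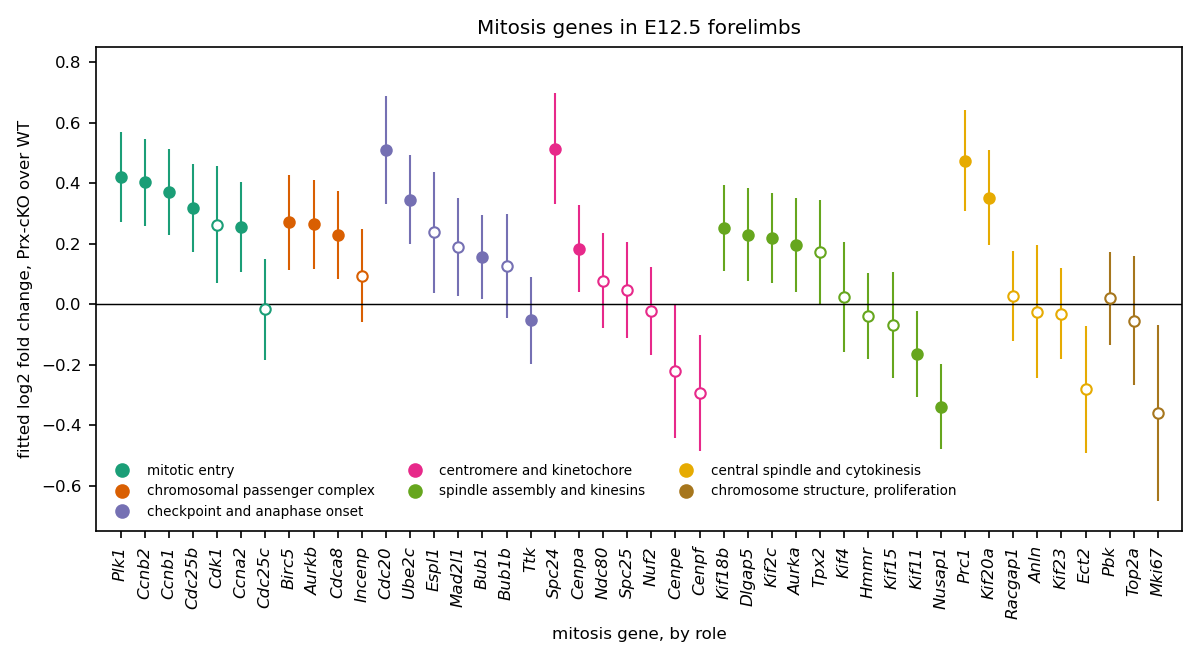
Fitted log2 fold change of each of the 44 mitosis genes between Prx-cKO and WT forelimbs (y axis), with genes along the x axis by role. Points are estimates, bars the standard error of the fit, and filled points mark genes whose 2 groups of 2 libraries do not overlap. Values run from -0.36 (Mki67) to 0.51 (Spc24), 30 of 44 lie above 0, and the role medians run from -0.05 (chromosome structure and proliferation) to 0.32 (entry), with overlap between the roles.

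Other parts of the cell cycle were read from lists beside the 44. Of 103 further mitosis genes, 58 were higher in Prx-cKO forelimbs with a median log2 fold change of 0.07, and edgeR called none. DESeq2 called 2 of them, both higher, against 2.26% of the genes to which it gave an adjusted p, so that the share was near the background. Those with the smallest p per list included Gtse1, a p53-responsive microtubule-binding protein, at 0.98 (SE 0.15), Kifc1, a minus-end kinesin, at 0.85 (SE 0.16), and Sass6, a centriole scaffold, at -0.67 (SE 0.19). The 40 DNA replication and S phase genes had a median of 0.39, with 39 higher, 31 without overlap (22.2% of all genes) and 16 at an unadjusted p under 0.05 (5.87% of all genes). Cdt1, which licenses replication origins, had 0.65 (SE 0.15) and Ccne1, cyclin E1, 0.83 (SE 0.19). The 11 p53 targets linked to arrest had a median of 1.14, with 10 higher. Among these Ccng1, cyclin G1, had 2.31 (SE 0.14) and Ptprv 4.15 (SE 0.23), each with an adjusted p of 0.118 by edgeR. DESeq2 called 7 of the 11 higher, against 2.26% in either direction.

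Markers of cell types moved between the same forelimb groups. The summed level of the 10 cartilage markers was 951 and 1077 CPM in WT libraries and 428 and 363 CPM in Prx-cKO, with 10 of 10 lower and a median log2 fold change of -1.50. The 10 skeletal muscle markers summed to 341 and 332 CPM in WT libraries and to 956 and 456 CPM in Prx-cKO. The 10 myeloid markers summed to 46.8 and 54.5 CPM in WT libraries and to 99.0 and 93.4 CPM in Prx-cKO, and the 10 limb mesenchyme markers to 1807 and 1953 CPM in WT libraries and 1330 and 1440 CPM in Prx-cKO. All 10 myeloid markers were higher, as were the 9 muscle markers that passed the filter on low counts (the other 1 was not tested), while the limb mesenchyme markers were split, with 6 lower and 4 higher. No marker of these 4 lists was at 0 in any forelimb library. The endothelial markers summed to 209 and 196 CPM in WT libraries and to 280 and 282 CPM in Prx-cKO. The nerve markers summed to 131 and 120 CPM against 145 and 188 CPM. The erythroid and the surface ectoderm sums overlapped between the groups. The part of these cell types in the small differences of the mitosis genes was not tested.

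In the marrow cultures, LysM-cKO was compared with WT to ask what loss of Impdh2 does in the osteoclast lineage. In the R0D3 cultures all 44 mitosis genes were higher on average in LysM-cKO, with a median log2 fold change of 1.01, about 2.02-fold. The size of that difference depended strongly on 1 of the 2 LysM-cKO libraries. Without LysM-cKO replicate 2 the median was 0.17, in a fit that did not pair libraries by replicate number. No member passed the test. The edgeR quasi-likelihood test called 0 of 44 members and 0.0143% of the 14030 genes tested, and DESeq2 called 0 members. At an unadjusted p under 0.05 there were 14 members, all higher, against 3.02% of all genes. A positive sign was seen for 51.7% of all genes, and their median was 0.01. The 2 knockout libraries were both above the 2 WT libraries for 15 members, against 17.5% of all genes.

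The 8 culture libraries were deposited in separate tables for replicate 1 and replicate 2, and same-numbered libraries deviated from their group means together. Within each number, LysM-cKO was higher than WT for 43 of 44 members in both pairs, against 29.9% of all genes. The median difference within the pair was 0.56 for replicate 1 and 1.21 for replicate 2 on the log2 scale. With the replicate number as a block, 43 of 44 members reached an unadjusted p under 0.05, against 6.53% of all genes. None passed after adjustment. The members' lowest adjusted p with the block was 0.194. At the threshold of 0.05 the block called 0.0214% of all genes. The blocked median was 0.96.

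Nusap1 had the largest difference in R0D3. It was at 5.01 and 10.4 CPM in WT libraries and at 12.6 and 34.1 CPM in LysM-cKO, with a log2 fold change of 1.60 (SE 0.60, adjusted p = 0.997, edgeR). Cenpf was at 5.18 and 8.15 CPM in WT libraries and at 10.9 and 23.5 CPM in LysM-cKO, a log2 fold change of 1.37 (SE 0.44). In both genes the groups did not overlap, and LysM-cKO replicate 2 was far above the other 3 libraries. Mki67 was at 60.4 and 87.9 CPM in WT libraries and 110 and 196 CPM in LysM-cKO, with 1.05 (SE 0.34), and Top2a at 44.4 and 73.8 CPM against 78.3 and 198 CPM, with 1.22 (SE 0.50). Both chromosome genes also separated the groups. Cenpe, a kinesin that moves chromosomes to the spindle equator, had 0.97 (SE 0.31), and Ect2 had 1.22 (SE 0.49).

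The entry genes mostly did not separate the groups in R0D3. Ccnb1 was at 12.3 and 19.8 CPM in WT libraries and at 14.5 and 43.4 CPM in LysM-cKO, so that LysM-cKO replicate 1 lay between the WT libraries. Cdk1 showed the same order, at 23.5 and 34.3 CPM against 27.1 and 63.4 CPM. Their log2 fold changes were 0.85 (SE 0.55) and 0.64 (SE 0.39). Cdc25b, a phosphatase that activates Cdk1 complexes, was the 1 entry gene with no overlap, at 23.6 and 29.0 CPM against 29.6 and 54.8 CPM. Of the checkpoint genes, Bub1 was at 4.31 and 7.59 CPM in WT libraries and at 7.01 and 23.6 CPM in LysM-cKO, with 1.37 (SE 0.57). Aurkb was at 7.63 and 12.4 CPM against 11 and 27.2 CPM, with 0.93 (SE 0.48). Incenp, its scaffold, was among the least different, at 71.9 and 77.5 CPM against 78.8 and 109 CPM, with 0.33 (SE 0.15). Cenpa differed least of the 44, at 58.6 and 48.6 CPM in WT libraries and 51.9 and 57.1 CPM in LysM-cKO, with 0.02 (SE 0.15).

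In the R40D3 cultures the same comparison gave 43 of 44 members higher in LysM-cKO, with a median log2 fold change of 0.77, about 1.70-fold, against -0.01 for all genes, of which 48.6% were higher. Again no member passed: edgeR called 0 of 44 and 0.0143% of all genes, DESeq2 called 0 members, and 3 members were at an unadjusted p under 0.05 in the higher direction, against 4% of all genes. Both knockout libraries were above both WT libraries for 31 members, against 19.7% of all genes, and below for none, against 18.9%. LysM-cKO was higher in both same-numbered pairs for 39 members, against 32.1% of all genes, with pair medians of 0.22 and 1.16. With the replicate block 27 members had an unadjusted p under 0.05, against 8.86% of all genes in the higher direction. After adjustment the block called 0 members and 0.214% of all genes, and the members' lowest adjusted p was 0.0859, for Ccnb2.

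Members of the spindle and of chromosome structure had the highest role medians in R40D3, 1.11 and 1.09. Dlgap5, a spindle assembly factor also called HURP, had the largest difference, from 3.97 and 3.36 CPM in WT to 6.19 and 14.0 CPM in LysM-cKO, with a log2 fold change of 1.44 (SE 0.65). Kif11 went from 6.69 and 7.09 CPM to 10.3 and 24.7 CPM, with 1.33 (SE 0.61). Both WT libraries were close together and both knockout libraries were above them. Mki67 was at 45.9 and 32.5 CPM in WT libraries and at 66.5 and 103 CPM in LysM-cKO, with 1.11 (SE 0.34, adjusted p = 0.648, edgeR). Top2a was at 37.7 and 35.8 CPM against 49.1 and 107 CPM, with 1.09 (SE 0.50). For these 4 genes both LysM-cKO libraries were above WT, replicate 2 by more than replicate 1.

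In the other roles Ccnb2 was at 5.23 and 8.49 CPM in WT libraries and at 8.51 and 25.4 CPM in LysM-cKO, with 1.30 (SE 0.77). Ccna2, cyclin A2, was at 10.4 and 12 CPM against 14.1 and 37.2 CPM, with 1.19 (SE 0.65). Cdc25b was at 19.4 and 15.7 CPM against 25.6 and 38.0 CPM, with 0.85 (SE 0.32). These groups did not overlap, although for Ccnb2 LysM-cKO replicate 1 was barely above WT replicate 2. Ccnb1 and Cdk1 also had LysM-cKO replicate 1 near the WT level. Ccnb1 overlapped, with LysM-cKO replicate 1 at 10.89 CPM against 10.67 and 10.93 CPM in WT. Cdk1 was narrowly separate, at 20.8 CPM against 20.2 and 19.2 CPM. Cenpf had 1.04 (SE 0.48), Bub1 0.95 (SE 0.61), Ect2 0.99 (SE 0.52), Kif23 0.68 (SE 0.37), Aurkb 0.75 (SE 0.52) and Mad2l1, the checkpoint effector that binds Cdc20, 0.55 (SE 0.36). Espl1, separase, which cuts cohesin at anaphase, was the only member not higher on average, and its sign changed to 0.03 with library size alone. It was at 24.8 and 31.4 CPM in WT libraries and at 21.3 and 34.6 CPM in LysM-cKO, with -0.01 (SE 0.30).

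**Figure D2:**
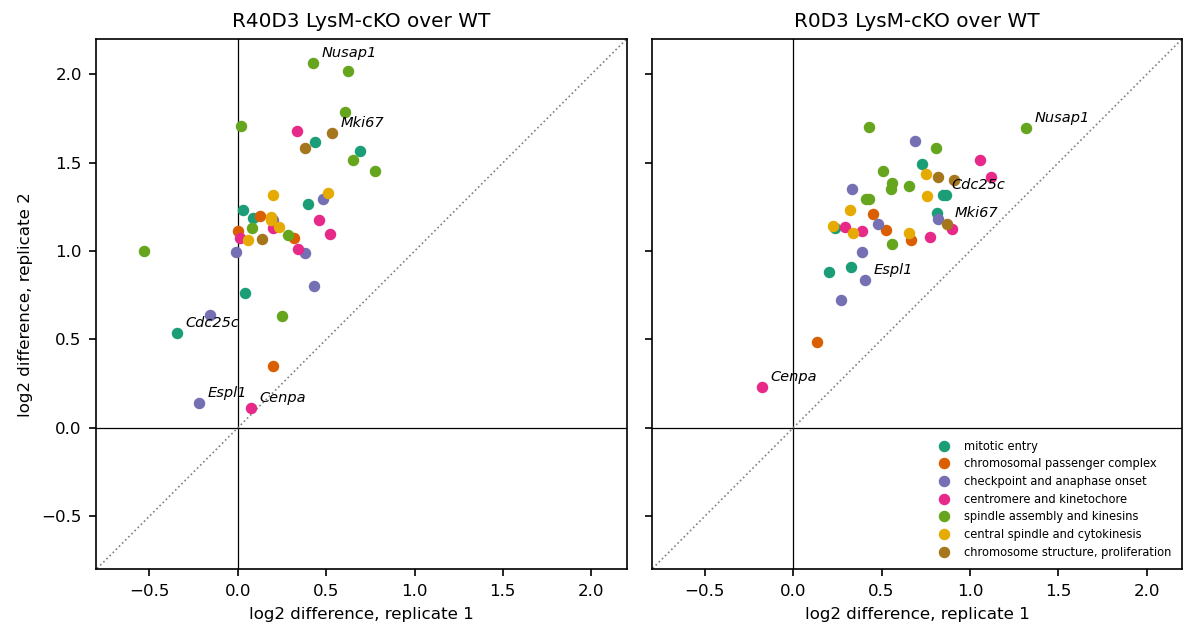
Difference in log2 CPM between LysM-cKO and WT for each mitosis gene within replicate 1 (x axis) and within replicate 2 (y axis), in R40D3 and R0D3 cultures; each point is 1 gene and the dotted line marks equal differences. Points lie above the dotted line in both panels because the differences of replicate 2, with medians of 1.16 and 1.21, exceed those of replicate 1, with medians of 0.22 and 0.56.

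The members varied as 1 block across the culture libraries. For 42 of 44 the highest library was LysM-cKO replicate 2 of R0D3, and for 32 the second highest was LysM-cKO replicate 2 of R40D3. The lowest library was a WT library of R40D3 for 37. The median deviation of the 44 genes from their own means, in log2 CPM, was -0.50 and 0.20 in WT R0D3, 0.09 and 1.48 in LysM-cKO R0D3, -0.68 and -0.62 in WT R40D3 and -0.42 and 0.57 in LysM-cKO R40D3. The SD between replicates of these library medians was 0.98 in LysM-cKO R0D3, 0.70 in LysM-cKO R40D3 and 0.50 in WT R0D3, but 0.044 in WT R40D3. The gap between WT and LysM-cKO was thus of the size of the spread within LysM-cKO. Without LysM-cKO replicate 2 the median log2 fold change was 0.17 in R0D3 and 0.18 in R40D3. Without LysM-cKO replicate 1 it was 1.55 and 1.25. These fits did not pair libraries by replicate number.

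Over the 8 culture libraries 40 of the 44 genes had a Pearson r of at least 0.9 with the mean of the other members, with a median of 0.971. Aurkb had the highest, 0.997. The exceptions were Espl1 at 0.14, Cenpa at 0.37, Incenp at 0.85 and Cdc25c at 0.87. Cdc25c had as few as 15 counts in a library and Cenpa and Incenp were among the members with the highest levels per length. The correlations describe 8 libraries that share genotype, culture and replicate structure and carry no p. The share of all genes with an r of at least 0.9 was not counted. Among the genes outside the 44 with the highest r to the members' mean were Foxm1 (0.996), Kntc1 (0.994), Esco2 (0.993) and Fanci (0.993). Foxm1, the forkhead factor of late cell cycle genes, was at 10.1 and 15.3 CPM in WT R0D3, 14.9 and 38.7 CPM in LysM-cKO R0D3, 8.73 and 9.47 CPM in WT R40D3 and 11.3 and 19.2 CPM in LysM-cKO R40D3.

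**Figure D3:**
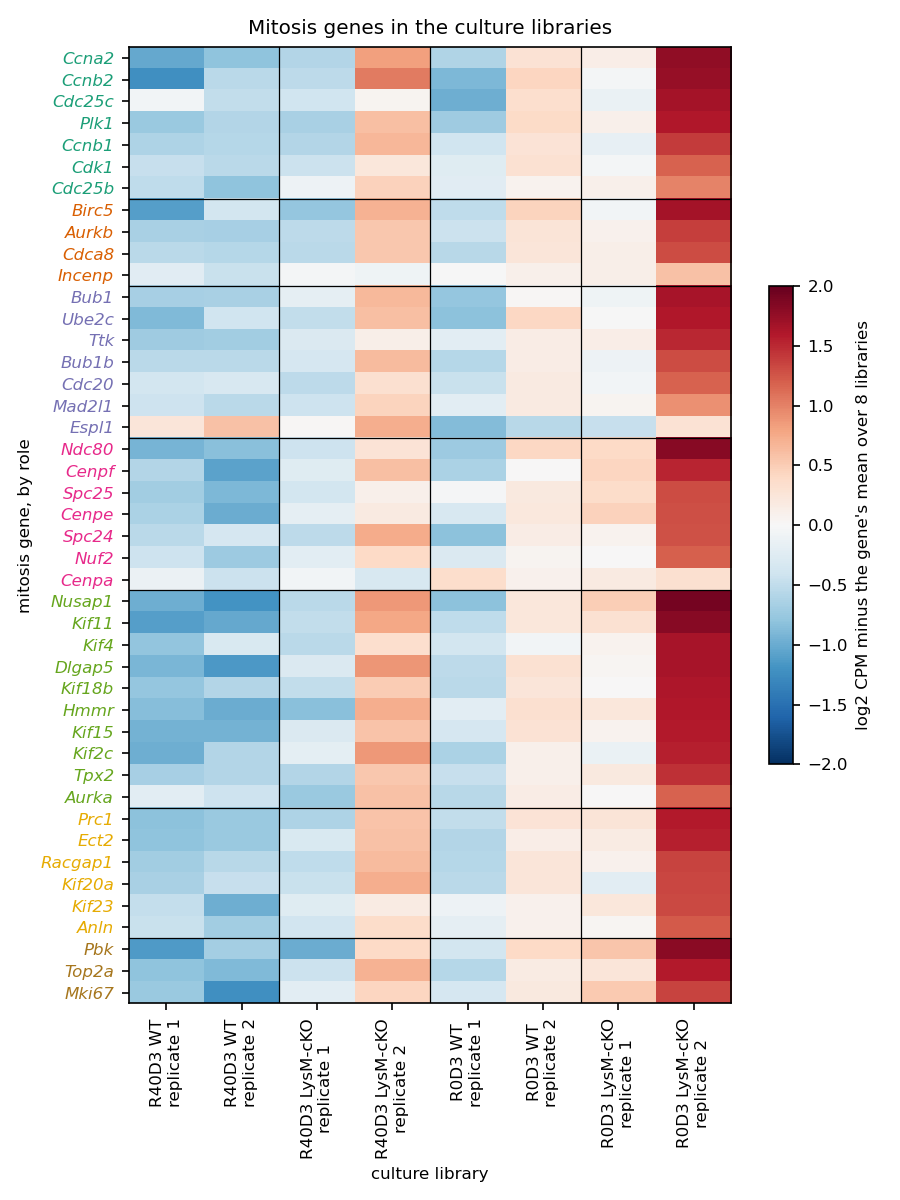
Heat map of the 44 mitosis genes (rows, by role) in the 8 culture libraries (columns), coloured by log2 CPM minus the gene's mean over the 8 libraries. The column of LysM-cKO replicate 2 in R0D3 is high for nearly every gene, with a median of 1.48, and the rows of Espl1 and Cenpa differ from the rest.

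Markers of other cells moved with these libraries. The 12 stromal fibroblast markers summed to 1719 and 1549 CPM in WT R0D3 and 2026 and 1975 CPM in WT R40D3. In LysM-cKO they summed to 1944 CPM in replicate 1 and 655 CPM in replicate 2 of R0D3, and to 1820 CPM in replicate 1 and 562 CPM in replicate 2 of R40D3. The 2 libraries with the most mitosis gene message in LysM-cKO thus had the least fibroblast message, with Col1a1 at 267 and 225 CPM there and at 645 to 847 CPM in the other 6. Between 0 and 2 of the 12 markers were at 0 in a library. The 12 macrophage markers, none at 0, summed to 39113 and 44234 CPM in WT R0D3 and to 24796 and 25354 CPM in LysM-cKO R0D3. Most of that sum was Lyz2, lysozyme M, whose locus carries the LysM Cre, at 29996 and 35255 CPM against 15404 and 16856 CPM. The other 11 summed to 9116 and 8979 CPM in WT R0D3 and to 9393 and 8498 CPM in LysM-cKO R0D3, and 7 of all 12 were higher in LysM-cKO, with a median log2 fold change of 0.06. The 16 markers of granulocytes, B, T and NK cells summed to 118 to 559 CPM over the 8 libraries. In R40D3 the 15 osteoclast markers were all lower on average in LysM-cKO, with a median log2 fold change of -0.62 and sums of 14562 and 26784 CPM against 28236 and 41244 CPM in WT. Their part in the levels of the mitosis genes was not tested.

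**Figure D4:**
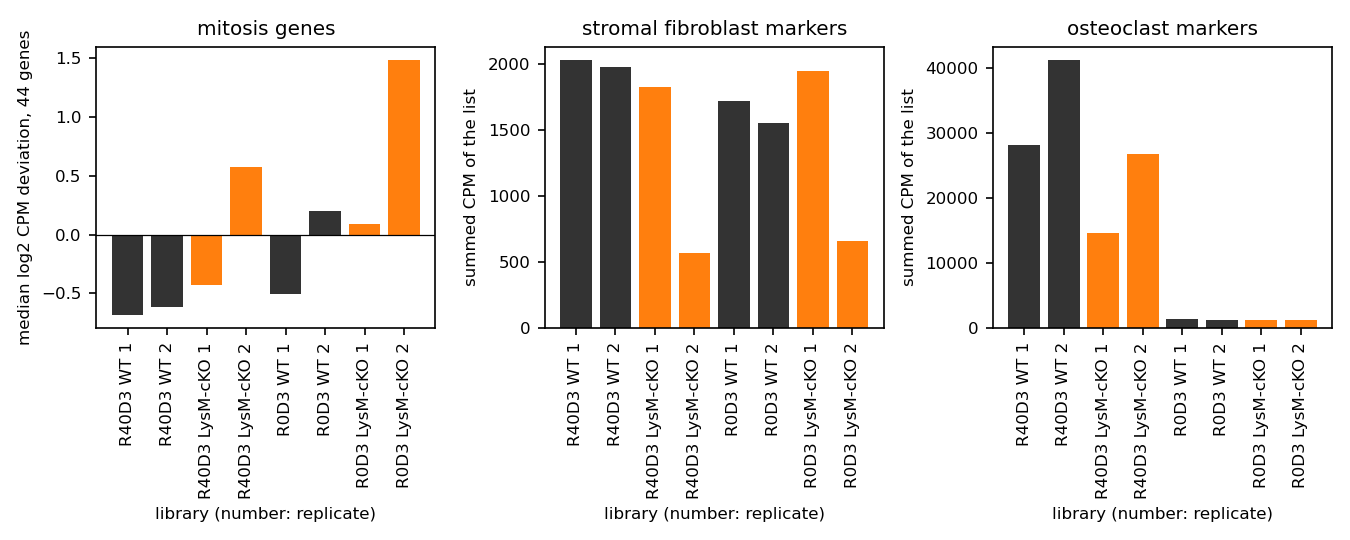
For each of the 8 culture libraries, the median deviation of the 44 mitosis genes in log2 CPM (first panel), the summed CPM of 12 stromal fibroblast markers (second panel) and of 15 osteoclast markers (last panel); dark bars are WT and orange bars LysM-cKO. LysM-cKO replicate 2 has the highest mitosis gene level within R0D3 (1.48) and within R40D3 (0.57), and the lowest fibroblast sums (655 and 562 CPM).

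Other cell cycle lists had smaller medians between LysM-cKO and WT than the 44 genes, and no gene of them was called by edgeR. The 103 further mitosis genes had medians of 0.51 in R0D3 (94 higher) and 0.32 in R40D3 (85 higher), also with none called with the block. Aspm, a spindle pole protein, had the lowest blocked adjusted p of them in R40D3, 0.0535, with a log2 fold change of 1.62 (SE 0.65). The 15 subunits and partners of the anaphase promoting complex, most of which are present throughout the cycle, had medians of 0.04 (11 higher) and -0.01 (7 higher). The 40 DNA replication and S phase genes had medians of 0.44 and 0.15, and the 11 p53 targets 0.27 and 0.20. The 16 transcription factors of mitosis genes had 0.03 (9 higher) and 0.09 (12 higher). With the block edgeR also called no gene of these 3 lists in either comparison.

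R40D3 was then compared with R0D3 within each genotype. In WT cultures 43 of 44 mitosis genes were lower in R40D3, against 48.8% of all genes, with a median log2 fold change of -0.57 (0.671-fold), while all 15 osteoclast markers were called higher. The exception among the members was Espl1, which rose and was the only member called. By edgeR 1 of 44 members was called, against 16.9% of all genes in either direction. The call rate among the members was below the background. With the replicate block 5 members were called, against 28.3% of all genes and 11.6% in the lower direction, and 5 were at an unadjusted p under 0.05 without it, against 30.3%. There were 27 members with both R40D3 libraries below both R0D3 libraries, against 29.2% of all genes, and 1 with both above, against 32.9%. Both same-numbered pairs were lower for 35 members, against 37.2% of all genes, with pair medians of -0.22 and -0.84.

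Espl1 was at 11.4 and 14.2 CPM in WT R0D3 and at 24.8 and 31.4 CPM in WT R40D3, a ratio of the group means of 2.19. Its log2 fold change was 1.13 (SE 0.32, adjusted p = 0.048, edgeR) and the adjusted p with the block was 0.000464. The R40D3 libraries were both well above the R0D3 libraries. The call without the block was close to the threshold. It was lost with DESeq2 size factors (adjusted p = 0.0509, edgeR), without the filter on low counts (adjusted p = 0.0598, edgeR), and when R0D3 WT replicate 1, R0D3 WT replicate 2 or R40D3 WT replicate 2 was left out. In LysM-cKO, Espl1 was at 15.1 and 25.5 CPM in R0D3 and at 21.3 and 34.6 CPM in R40D3, a log2 fold change of 0.46 (SE 0.30), which was called only with the block (adjusted p = 0.038). The 2 groups overlapped there, although each R40D3 library was above its same-numbered R0D3 library.

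The members that fell in WT with the replicate block were Cenpa, Mki67, Spc25 and Pbk. Cenpa was at 58.6 and 48.6 CPM in R0D3 and at 42.0 and 33.8 CPM in R40D3, with -0.50 (SE 0.15) without the block and an adjusted p of 0.0669, and an adjusted p of 0.0123 with it. Mki67 was at 60.4 and 87.9 CPM against 45.9 and 32.5 CPM, with -0.92 (SE 0.35, adjusted p = 0.0391 with the block). Spc25, a kinetochore subunit, was at 6.87 and 8.02 CPM against 4.24 and 3.66 CPM, and Pbk, a mitotic kinase, at 4.89 and 8.39 CPM against 2.82 and 3.91 CPM. In all 4 the R40D3 libraries were below the R0D3 libraries. Hmmr, a spindle-associated hyaluronan receptor, had the lowest value, -1.002 (SE 0.63), at 7.75 and 11.1 CPM against 4.92 and 4.46 CPM, and did not pass either fit. Cdk1 had -0.55 (SE 0.41), Ccnb1 -0.57 (SE 0.58), Aurkb -0.62 (SE 0.53) and Top2a -0.68 (SE 0.50).

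In LysM-cKO the same shift was seen from higher levels. Of the 44, 43 were lower in R40D3, all 43 in both same-numbered pairs, against 35.6% of all genes, with a median log2 fold change of -0.82. The edgeR fit without the block called 0 members, against 10.1% of all genes, and 9 were at an unadjusted p under 0.05, against 24% of all genes. DESeq2 called 4 members, all lower, against 11.7% of all genes. With the replicate block 18 members were called, 17 lower and Espl1 higher, against 21.3% of all genes in either direction and 8.22% in the lower. Pbk fell most, from 9.31 and 22.4 CPM to 3.12 and 8.32 CPM, with -1.49 (SE 0.54, adjusted p = 0.00164 with the block). Ndc80 went from 7.99 and 21.8 CPM to 4.55 and 7.33 CPM, with -1.33 (SE 0.52, adjusted p = 0.00958 with the block). Both groups were separate for these genes and for 7 others, against 22.5% of all genes, and none had both R40D3 libraries above, against 27.3%.

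The members that fell with the block came from every role. They included Spc25 (-1.04), Cenpe (-0.92), Cenpa (-0.43) and Ndc80 of the kinetochore, Nusap1 (-1.07), Kif11 (-0.99), Tpx2 (-0.89), an activator of Aurora A, and Kif4 (-1.13), a chromosome-bound kinesin, of the spindle, Ttk (-1.07) and Ube2c (-0.87) of the checkpoint, Birc5 (-0.92), and Prc1 (-0.98). Mki67 (-0.85), Plk1 (-0.95) and Ccna2 (-0.91) were among them too. These are log2 fold changes of the fit without the block, and the adjusted p with the block lay between 0.0173 and 0.0461 for the genes of this paragraph other than Ndc80. The median was -1.39 without R40D3 LysM-cKO replicate 2 and -0.00 without R0D3 LysM-cKO replicate 2, so its size depended on these libraries. Ccnb1 had -0.66 (SE 0.54) and Cdc20 -0.74 (SE 0.43), and neither passed.

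**Figure D5:**
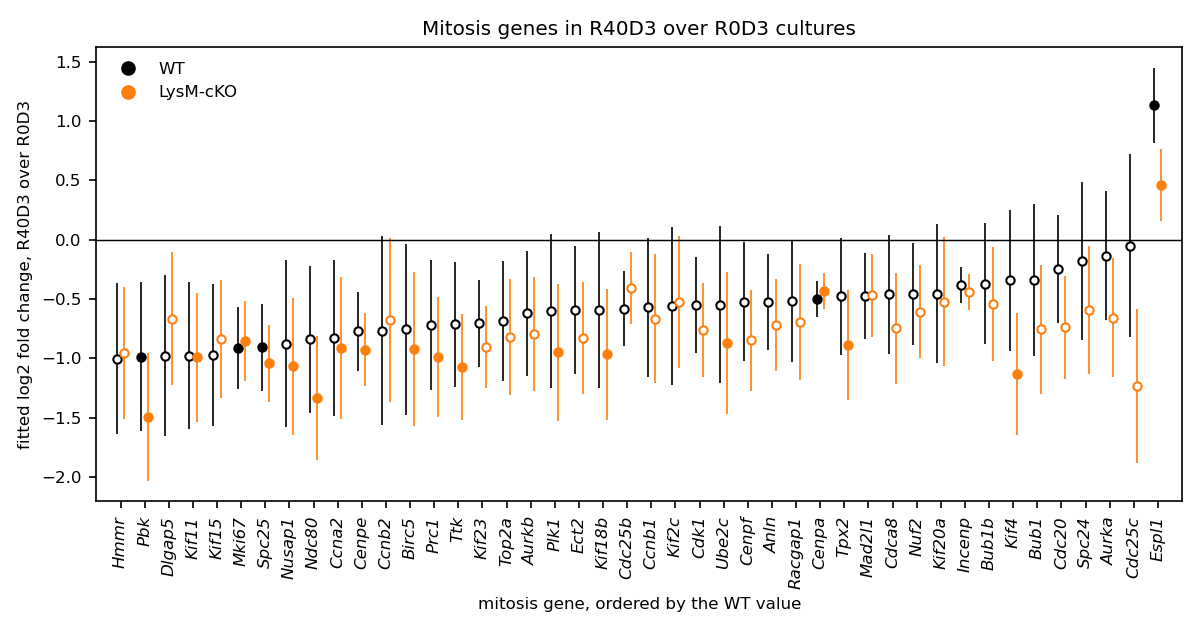
Fitted log2 fold change of R40D3 over R0D3 (y axis) for each mitosis gene (x axis, ordered by the WT value), in WT (black) and LysM-cKO (orange). Bars are standard errors of the fit without the replicate block, and filled points have an adjusted p under 0.05 with it. Espl1 lies above 0 in both genotypes (1.13 and 0.46), and the other members lie below 0, with medians over the 44 of -0.57 and -0.82.

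Genes of 2 further lists, mitosis and S phase, also had negative medians. The 103 further mitosis genes had -0.29 in WT and -0.38 in LysM-cKO, and the S phase genes -0.28 and -0.49. Without the block 0 of the 103 were called in WT, against 16.9% of all genes, and 1 in LysM-cKO, against 10.1%. With the block 14 were called in WT, 9 lower and 5 higher, against 28.3% of all genes, and 22 in LysM-cKO, 21 lower and 1 higher, against 21.3%. The first of these shares was below the background and the second was close to it. Pcna, the sliding clamp of DNA replication, fell in both, by 0.97 (SE 0.24, adjusted p = 0.0302, edgeR) in WT and by 1.26 (SE 0.24, adjusted p = 0.018, edgeR) in LysM-cKO. The S phase gene Ccne2, cyclin E2, went the other way in WT, with 1.25 (SE 0.45, adjusted p = 0.104, edgeR). Its adjusted p by edgeR with the block was 0.00623. Nfya, a subunit of the CCAAT-binding NF-Y, fell in WT, with -0.38 (SE 0.10, adjusted p = 0.0382, edgeR). In LysM-cKO Nfya had -0.36 (SE 0.10), with an adjusted p by edgeR of 0.069 without the block and 0.00983 with it. Nfyc, another NF-Y subunit, was higher in WT R40D3, with 0.28 (SE 0.10, adjusted p = 0.104, edgeR). Lin9, a subunit of the MuvB core, fell in LysM-cKO, with -0.56 (SE 0.14, adjusted p = 0.0436, edgeR). Fzr1, which activates the anaphase promoting complex after mitosis, rose in WT with the block (0.48, SE 0.14, adjusted p = 0.00196) but had an adjusted p of 0.0571 without it.

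Whether the genotypes differed in the shift from R0D3 to R40D3 was tested as an interaction. No member was called, by edgeR with or without the block (0% of all genes) or by DESeq2. At an unadjusted p under 0.05 there were 0 members without the block, against 1.77% of all genes, and 1 with it, against 5.99%. That member was Espl1, with -0.67 (SE 0.44) and an adjusted p of 0.811 with the block. Of the 44, 35 had a negative interaction, against 53% of all genes. The members' median was -0.18 and values ranged from -1.18 (Cdc25c, SE 1.01) to 0.31 (Dlgap5, SE 0.88). Leaving out 1 library moved this median from -0.82 (without R40D3 LysM-cKO replicate 2) to 0.56 (without R0D3 LysM-cKO replicate 2).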

How the data were processed

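The authors deposited raw read counts per Ensembl gene: the 4 forelimb libraries share a table, and the 8 culture libraries are split by replicate number. The submitters' processing notes name FastQC 0.11.2, Trimmomatic 0.36, HISAT2 2.1.0, DESeq2 1.12.4 and the build GRCm38. The counter, its annotation and its strand setting are not given in the sources used here. Per the labels' protocols, TRIzol RNA went into an mRNA library kit. Counts were used as deposited. Genes were filtered with filterByExpr, scaled by TMM and tested two-sided with edgeR 4.0.16 (quasi-likelihood, R 4.3.3), with Benjamini-Hochberg adjustment over 19987 forelimb or 14030 culture genes and calls at an adjusted p under 0.05. Forelimbs were fitted alone and the 8 cultures together. Standard errors (SE) are the size of the log2 fold change over the root of F. DESeq2 1.42.0, other scaling and filters, a replicate block and leaving out each library were alternatives. Log2 CPM used a prior count of 2. RPKM used GENCODE M21 exonic lengths. The fits were tested on simulated data. Correlations of the deviations of same-numbered libraries were 0.343 to 0.609 for the 6 pairs of culture groups, so the numbers were taken to pair them, and 0.261 for the single forelimb pair, which was not. In every group the 2 replicates differed by more than sampling noise. In each comparison the named members were those called with or without the block (up to 12), the 2 with the smallest p per role, Ccnb1, Cdk1, Aurkb, Mki67, Top2a, the extremes and those of opposite sign (up to 5). Other genes named were chosen after their values were seen. A gene that the rule on likeness to the members names is not reported here. The members and all lists were chosen with earlier results of these data known.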

Additional observations from a re-analysis of the deposited data

Results flagged for a closer look

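The fitted values of Kif11, Nusap1 and Ttk differed in sign between the forelimb and the cultures, and none was called in either. Every Prx-cKO forelimb library was below every WT forelimb library for these genes. They were the only members so placed, against 21% of all genes. For Kif11 and Nusap1 every LysM-cKO culture library was above every WT library of the same culture, against 17.5% of all genes in R0D3 and 19.7% in R40D3. For Ttk the LysM-cKO libraries were both above WT in R40D3 and not in R0D3, where LysM-cKO replicate 1 was at 3.85 CPM and WT replicate 2 at 3.92 CPM. For Kif11 the log2 fold change was -0.16 (SE 0.14) in the forelimb, 1.35 (SE 0.55) in R0D3 and 1.33 (SE 0.61) in R40D3. For Nusap1 it was -0.34 (SE 0.14) in the forelimb, 1.60 (SE 0.60) in R0D3 and 1.41 (SE 0.67) in R40D3. For Ttk it was -0.05 (SE 0.14) in the forelimb and 0.65 (SE 0.53) in R40D3. The difference between tissue and culture was not tested, since the 2 sets were deposited and fitted separately and differ in Cre driver and cell type.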

How the results depend on the processing

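With 2 libraries a group, single libraries set the size of most values, and the lowest member had 15 counts in a culture library. Settings other than leaving out a library changed the following. In the forelimb the median was 0.068 with library size alone. In R40D3, LysM-cKO against WT, Espl1 was 0.029 with library size alone and 0.0053 without the filter. For WT R40D3 against R0D3, members called were 0 with DESeq2 size factors, 3 with the DESeq2 test, 0 without the filter, 5 with the replicate block and 9 when only the compared groups were fitted. For LysM-cKO R40D3 against R0D3 they were 4 with the DESeq2 test and 18 with the replicate block. The causes of these changes were not tested. The replicate block changed no other count of called members. In the forelimb, where the number gave only a weak correlation of 0.261, the block called 0 members with a lowest adjusted p of 0.320. The edgeR legacy fit, chosen after seeing the data, changed no direction of a named member and no count by over 1.5 times.

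Leaving out each library in turn gave these lowest and highest values. Forelimb: median 0.081 and 0.21, Mki67 -0.75 and 0.12, Top2a -0.32 and 0.22. R40D3, LysM-cKO against WT: median 0.18 and 1.25, Ccnb1 -0.0037 and 1.28, Espl1 -0.41 and 0.33. R0D3: median 0.17 and 1.55, Ccnb1 -0.14 and 1.41, Cdk1 -0.097 and 1.11, Cenpa -0.11 and 0.17. WT R40D3 against R0D3: called 0 and 1, median -0.88 and -0.21. LysM-cKO R40D3 against R0D3: called 0 and 6, the 6 without R0D3 LysM-cKO replicate 1, median -1.39 and -0.00, Ccnb1 -1.44 and 0.33, Cdc20 -1.25 and 0.0073. Interaction: median -0.82 and 0.56, Anln -0.64 and 0.52, Aurka -1.33 and 0.19, Aurkb -0.79 and 0.61, Ccnb1 -0.84 and 0.90, Cdc20 -0.97 and 0.25, Cdc25b -0.18 and 0.68, Cdc25c -2.05 and 0.015, Cdca8 -0.92 and 0.43, Cdk1 -0.67 and 0.53, Cenpa -0.076 and 0.24, Cenpf -0.81 and 0.33, Dlgap5 -0.38 and 1.34, Incenp -0.24 and 0.19, Kif15 -0.41 and 1.09, Kif23 -0.62 and 0.45, Kif4 -1.36 and 0.22, Mki67 -0.29 and 0.54, Ndc80 -1.18 and 0.40, Pbk -1.35 and 0.26, Plk1 -1.10 and 0.60, Top2a -0.80 and 0.68. In these fits the group with 1 library is assumed to vary like the others.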
